A study of Mus musculus with 18 samples.

Results

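The contactin and L1-family adhesion genes are described here by where signal for NFIA and NFIB, transcription factors of the nuclear factor I (NFI) family, was found near them in mouse cerebellar cells on the way to medulloblastoma. The 9 genes were chosen by name: the contactins Cntn1, Cntn2, Cntn3, Cntn4, Cntn5 and Cntn6, and the L1-family genes Nrcam, Nfasc and Chl1, out of 20665 protein-coding genes on the 19 autosomes. CUT&Tag was used, a method that brings a transposase to a protein on chromatin through an antibody and tags the DNA there. Granule neuron progenitors (GNPs) came from cerebella of mice at postnatal day 7, hyperplasia from day 28 and tumors, labelled medulloblastoma, from adults, all separated on a Percoll density gradient with 100000 cells per library. Each of the 3 stages had 3 preparations, and each preparation gave 1 NFIA and 1 NFIB library, which makes 18 libraries. The series' text names a genetically engineered mouse model, and the sources used here give neither its alleles nor its strain, nor whether GNPs and hyperplasia carried them. Stage, age and, for tumors, the date in the title changed together and cannot be told apart, and no label ties a preparation to an animal, so the spread behind each p-value is that of preparations and could be technical.

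Contactins are immunoglobulin-domain proteins held in the neuronal membrane by a lipid anchor. The L1 family crosses the membrane and binds ankyrins, and thereby the spectrin skeleton, from inside. Members of both groups bind each other on axons, where they guide growth, hold synapses and assemble the node of Ranvier and its flanks. In the cerebellum several of them mark granule neurons as these leave the cell cycle and extend parallel fibers. NFI proteins bind DNA as dimers at a palindrome built of the motif TTGGC, and are known for their part in granule neuron differentiation. A summit near a gene shows where signal peaked, not whether the gene was expressed.

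The files listed peak summits, single positions each with the peak caller's score, a −log10 p or q value. List lengths ran between 49948 and 385466 summits, and so the comparison was kept to 30000 autosomal summits per library, those with the highest scores, called top summits below. Each was given to the nearest gene span within 100 kb. The score of the last summit kept ran between 3.46 and 9.84. Depth is unknown, since the files hold neither reads nor coverage. No pair of libraries shared more than 0.537% of its top summit positions. In 6 of the 18 libraries the name in the deposited data carries the other NFI protein than the title. The titles were followed here, and what is said of NFIA against NFIB rests on them. The 6 were NFIB 1 and NFIA 3 of every stage. The preparation of a file was also read from the titles. Sums per preparation, the spread behind the p-values, values within a title date and shares hit by both libraries of a preparation rest on them too. Of the marker lists, 6 granule neuron genes held 69 to 71 top summits per GNP preparation, 53 to 60 in hyperplasia and 57 to 62 in tumors, and 9 granule progenitor genes held 93 to 101 in GNPs, 74 to 92 in hyperplasia and 89 to 104 in tumors. The 3 microglial genes held 0 to 3 in any preparation, with Aif1 at 0, while 5 genes of astrocytes and Bergmann glia held 20 to 24 in GNPs, 22 to 27 in hyperplasia and 16 to 22 in tumors, with Aqp4 at 0. The 5 genes of Purkinje cells and interneurons held 8 to 11 in GNPs, 7 to 10 in hyperplasia and 7 in each tumor preparation, with Pcp2 at 0. The 5 oligodendrocyte lineage genes held 30 to 34, 27 to 38 and 28 to 32 in the same order of stages. For 4 vascular and meningeal genes it was 9 to 13, 8 to 9 and 13 to 15. Sums can rest largely on 1 gene. In GNPs, Rbfox3 held 43 to 47 of the granule neuron summits, and Gli2 42 to 50 of the granule progenitor ones. Whether a changed makeup of cells had a part in the values below was not tested.

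Promoter sequences were at hand for all 9 genes, in 14 windows of 300 bases that run from 250 bases before to 50 after a start listed by RefSeq (GRCm38.p6, the mm10 build). Printed are windows of 4 genes with top summits in or beside them, 2 that hold the NFI motif and 2 that do not, with each TTGGC, or GCCAA for the other strand, in capitals, each 5′ to 3′ on the strand of its gene. They lie at chr1:132542891-132543190 on the minus strand (Cntn2), chr6:106118692-106118991 on the plus strand (Cntn4), chr15:92050915-92051214 on the plus strand (Cntn1) and chr9:10904677-10904976 on the minus strand (Cntn5).
Cntn2: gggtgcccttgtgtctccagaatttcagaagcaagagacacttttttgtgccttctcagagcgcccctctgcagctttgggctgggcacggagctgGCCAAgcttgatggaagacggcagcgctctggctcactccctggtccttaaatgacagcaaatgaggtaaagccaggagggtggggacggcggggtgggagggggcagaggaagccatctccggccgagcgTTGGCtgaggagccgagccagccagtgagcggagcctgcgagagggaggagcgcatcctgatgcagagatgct
Cntn4: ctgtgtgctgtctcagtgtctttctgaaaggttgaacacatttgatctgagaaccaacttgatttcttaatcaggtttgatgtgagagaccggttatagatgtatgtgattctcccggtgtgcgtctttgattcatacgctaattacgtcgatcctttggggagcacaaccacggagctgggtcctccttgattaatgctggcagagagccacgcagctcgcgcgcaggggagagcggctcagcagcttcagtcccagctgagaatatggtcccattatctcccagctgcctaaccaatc
Cntn1: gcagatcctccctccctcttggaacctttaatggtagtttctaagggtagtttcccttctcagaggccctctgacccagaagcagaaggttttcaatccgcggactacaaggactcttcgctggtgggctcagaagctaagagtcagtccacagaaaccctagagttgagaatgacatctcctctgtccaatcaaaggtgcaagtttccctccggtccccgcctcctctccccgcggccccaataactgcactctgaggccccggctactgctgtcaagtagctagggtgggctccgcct
Cntn5: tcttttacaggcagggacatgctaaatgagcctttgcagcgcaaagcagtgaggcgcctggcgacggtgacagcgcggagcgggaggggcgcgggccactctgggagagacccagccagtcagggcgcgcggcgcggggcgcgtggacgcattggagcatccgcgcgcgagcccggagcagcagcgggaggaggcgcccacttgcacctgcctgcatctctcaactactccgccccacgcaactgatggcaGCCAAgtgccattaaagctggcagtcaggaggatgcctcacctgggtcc

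The Cntn2 window held 2 motifs, a GCCAA with its first base at -154 and a TTGGC at -23 from the start. In 11 of the 18 libraries a top summit fell inside this window, at a median position of -2 and between -164 and 29. Within 1 kb of this start, 6 GNP, 5 hyperplasia and 2 tumor libraries had a top summit. The Cntn4 window, at a start inside the gene span, held no motif and a top summit in 10 libraries, at a median position of -99. At Cntn1, 16 libraries had a top summit within 1 kb of the start, but only 1 had it inside the window, which held no motif. The Cntn5 window held 1 motif, a GCCAA at position 1, and a top summit in 2 libraries. A second Cntn5 window, chr9:10904726-10905025, held no motif and a top summit in 4 libraries. Of the 14 windows, the only others with a motif were that of Cntn2 and that of Nfasc at chr1:132642809-132643108. The printed windows therefore do not stand for the share among the 14. Across 32851 promoters of this length, 46.7% held the motif on either strand at least once and 0.0365% held the full palindrome, TTGGC with its reverse complement after 5 other bases, which was in none of the 14 windows. A match is a run of letters and no measured binding site, and a window without one says nothing of the protein.

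Top summits were unevenly spread over the 9 genes when set against length. Cntn2, whose product guides early axons, had 6.8 top summits per library per 100 kb of the territory nearest to it, and Nfasc, whose product neurofascin organizes the axon initial segment and the node, had 4.56. The mean over all genes was 1.51 and the median gene had 1.17. Nrcam, Chl1 and Cntn1 lay near that with 1.38, 1.17 and 1.16. The other 4 contactins were sparse: Cntn5 had 0.37, Cntn3 0.323, Cntn6 0.185 and Cntn4 0.172. Their spans are 371 to 1271 kb long, and the 945 genes with spans of at least 200 kb had a median of 0.99. Cntn2 was denser than 92% of genes and Cntn4 denser than 27%. Cntn2 and Nfasc are neighbors on chromosome 1 and Cntn3, Chl1, Cntn6 and Cntn4 lie in a row on chromosome 6, between 102163304 and 106700141.

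**Figure D1:**
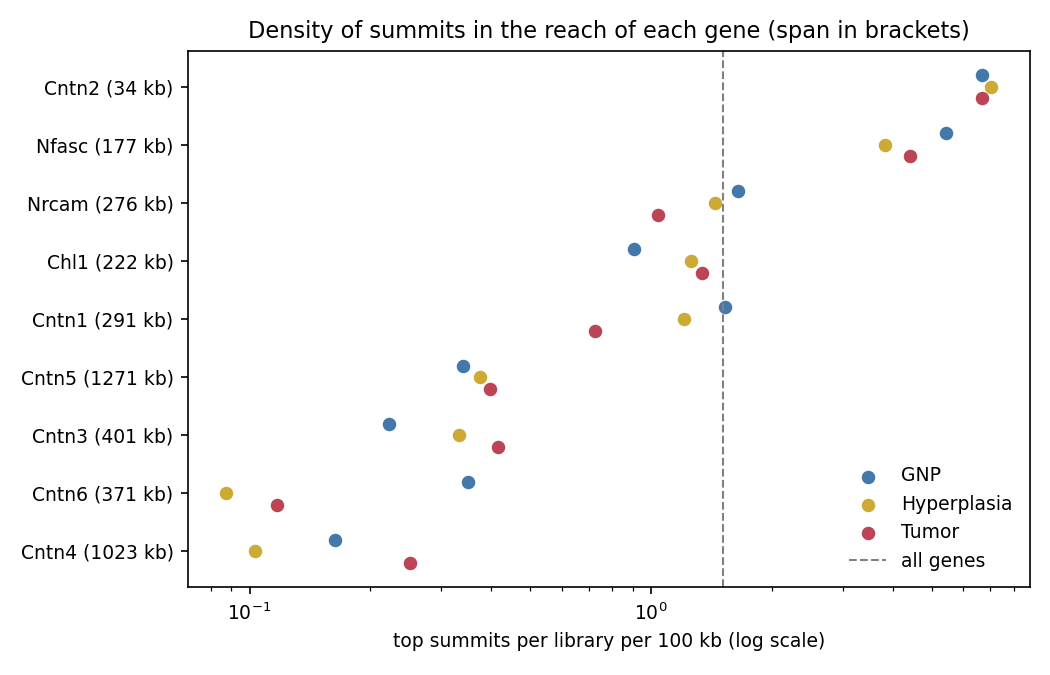
Top summits per library per 100 kb of nearest territory (log axis) for each gene, one point per stage, with the mean over all genes as a dashed line. Cntn2 and Nfasc lie right of the line at every stage, and Cntn3, Cntn4, Cntn5 and Cntn6 lie left of it at every stage.

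The comparison between stages asks whether NFI binding at these genes differs between normal progenitors, hyperplasia and tumors. Numbers of top summits at the 9 genes, with NFIA and NFIB libraries of a preparation summed, added up to 83, 90 and 89 in the GNP preparations, 68, 77 and 83 in hyperplasia and 80, 78 and 75 in tumors. All 9 genes passed the filter of a mean of 2 summits per preparation, as did 8588 genes in all. Cntn6, with 19 over the 9 preparations, passed because of its GNP preparations. With limma and Benjamini-Hochberg adjustment over these 8588 genes, none of the 9 passed an adjusted p of 0.05 between hyperplasia and GNPs, where 0.175% of all genes did, between tumors and GNPs, where 0.245% did, or between tumors and hyperplasia, where 0.0582% did. Before adjustment 2, 3 and 1 of the 9 had p under 0.05, against 13.4%, 14.8% and 11.3% of all genes. The median log2 fold change of the 9 was -0.19 for hyperplasia over GNP, 0.00 for tumor over GNP and 0.08 for tumor over hyperplasia, and that of all genes was 0.00 in each. Summit numbers are small, and a gene with few summits can change much without passing.

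Whether preparations overlapped gives a plainer view. Between hyperplasia and GNPs, 1 of the 9 genes was higher in all preparations (Chl1) and 2 were lower (Nfasc and Cntn6), where 5.27% of all genes were higher and 5.82% lower. Between tumors and GNPs, Chl1 and Cntn3 were higher in all preparations and Cntn1, Nfasc and Cntn6 lower, where 6.17% and 5.9% of all genes were. Between tumors and hyperplasia every gene of the 9 overlapped, and 4.27% and 3.73% of all genes did not overlap. Both comparisons with GNPs share the same 3 GNP preparations. Values for each gene follow, L1 family first.

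**Figure D2:**
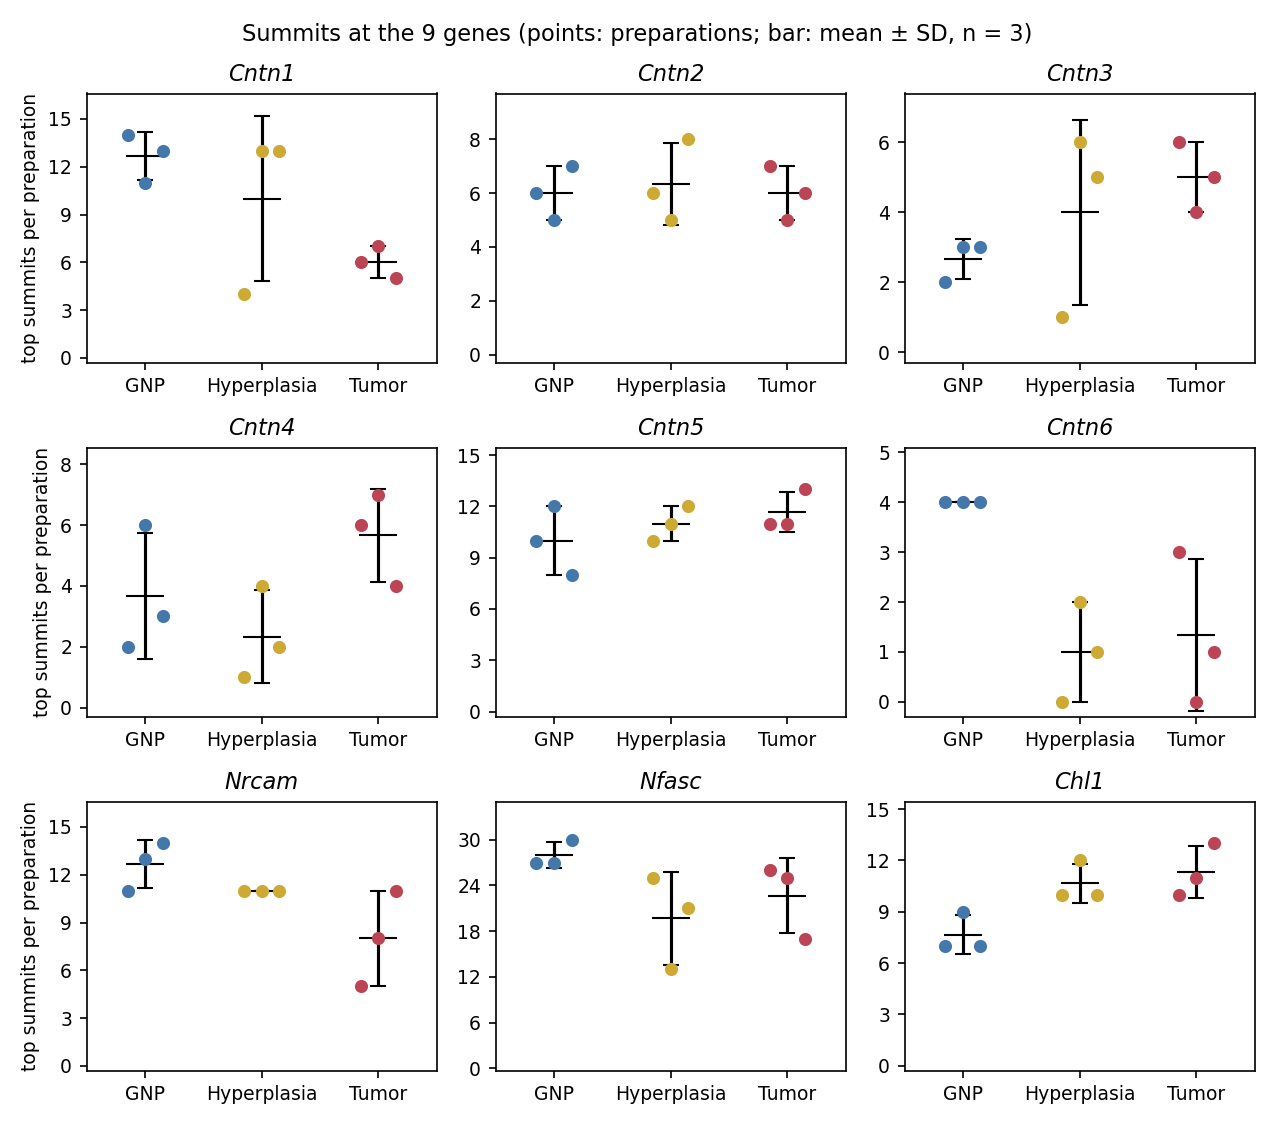
Top summits per preparation (NFIA and NFIB summed) at each of the 9 genes, by stage, with points for the 3 preparations and bars for mean ± SD. Chl1 is higher in hyperplasia and tumors than in GNPs without overlap, and Cntn6 is lower in both.

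Chl1, whose product is the close homolog of L1 and a partner of neuropilin in axon guidance, had 7, 9 and 7 top summits in GNPs, 10, 12 and 10 in hyperplasia and 10, 11 and 13 in tumors. Every hyperplasia and tumor preparation was above every GNP preparation. The log2 fold change was 0.46 for hyperplasia over GNP (SE 0.15, adjusted p = 0.24) and 0.54 for tumor over GNP (SE 0.15, adjusted p = 0.162), neither past the threshold. Within the first title date hyperplasia averaged 11 summits and GNPs 8, and within the second the values were 10 in hyperplasia and 7 in GNPs. Chl1 lies on chromosome 6, which held 7.07% ± 0.16 of top summits in tumors and 5.25% ± 0.08 in GNPs (SD, n = 3 each), 1.35 times as many. With every chromosome's total set level, the value for tumor over GNP was 0.13. That for hyperplasia over GNP was 0.42, and chromosome 6 held 5.39% of top summits in hyperplasia. With only summits inside the gene span counted, the values were 0.00 for hyperplasia over GNP (limma adjusted p = 1) and 0.29 for tumor over GNP (adjusted p = 0.448), and with summits within 20 kb 0.30 and 0.70 (adjusted p = 0.38 and 0.0664). The higher numbers of hyperplasia were thus of summits outside the span.

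Nfasc had the most top summits of the 9, with 27, 27 and 30 in GNPs, 25, 13 and 21 in hyperplasia and 26, 25 and 17 in tumors. All 6 later preparations were below the 3 of GNPs, the nearest by 1 summit. The log2 fold change was -0.55 for hyperplasia over GNP (SE 0.25, adjusted p = 0.396) and -0.32 for tumor over GNP (SE 0.25, adjusted p = 0.605), the second being -0.16 with summits inside the span alone and -0.06 within 20 kb. The lowest hyperplasia preparation, the second, holds the NFIA library in which 20.4% of top summits shared the score of the last one kept, and Nfasc had 5 top summits in that library against 8 in its NFIB partner. Within the first title date hyperplasia averaged 19 and GNPs 27, and within the second hyperplasia had 21 and GNPs 30.

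Nrcam, the neuronal adhesion molecule that gathers sodium channels at nodes with neurofascin, had 11, 13 and 14 top summits in GNPs, 11 in each of the 3 hyperplasia preparations and 5, 8 and 11 in tumors. Tumors and GNPs met at 11. The log2 fold change of tumor over GNP was -0.69 (SE 0.25, adjusted p = 0.262), and that of hyperplasia over GNP -0.19 (SE 0.25, adjusted p = 0.795).

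Among the contactins, Cntn1, whose product forms the paranodal junction with Caspr and neurofascin, had 14, 11 and 13 top summits in GNPs, 4, 13 and 13 in hyperplasia and 6, 7 and 5 in tumors. The 3 tumor preparations were all below the GNPs, and hyperplasia was split between 1 low and 2 high preparations. The log2 fold change of tumor over GNP was -1.02 (SE 0.41, adjusted p = 0.306). It was -0.80 in the NFIA libraries alone and -1.21 in the NFIB libraries alone. In the first hyperplasia preparation, the low one, NFIA gave 1 top summit and NFIB 3.

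Cntn2, also called TAG-1, had 6, 5 and 7 top summits in GNPs, 6, 5 and 8 in hyperplasia and 7, 5 and 6 in tumors. These totals coincided between stages, with a log2 fold change of 0.00 for tumor over GNP and a 95% interval of -0.48 to 0.48. Single positions of Cntn2 differed more. At its start, chr1:132542754-132543204 had a top summit in 6 GNP, 5 hyperplasia and 2 tumor libraries, and at any score in 6, 6 and 4. Inside the gene, chr1:132530647-132531191 had a top summit in 4, 5 and 6. Cntn5, also called NB-2 and known from auditory and visual circuits, had 10, 12 and 8 in GNPs, 10, 11 and 12 in hyperplasia and 11, 11 and 13 in tumors. Its log2 fold change of tumor over GNP was 0.23, with an interval of -0.14 to 0.59. With only summits inside the span it was 0.81 (limma adjusted p = 0.188), and within 20 kb 0.72 (adjusted p = 0.234). Within 100 kb, Cntn2 and Cntn5 had the narrowest intervals among the contactins, and both included 0.

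The remaining 3 contactins lie on chromosome 6 and had few summits. Cntn6, also called NB-3, a ligand of Notch known from granule cell synapses, had 4 top summits in each GNP preparation, 0, 2 and 1 in hyperplasia and 3, 0 and 1 in tumors. All later preparations were below the GNPs. On both title dates hyperplasia had 1 on average and GNPs had 4. The log2 fold change was -1.87 for hyperplasia over GNP (SE 0.78, adjusted p = 0.366) and -1.71 for tumor over GNP (SE 0.78, adjusted p = 0.36), and with chromosome totals set level the tumor value was -1.98. With 1 hyperplasia or tumor preparation left out at a time they ran from -2.38 to -1.22 and from -2.38 to -0.97. Counting all listed summits, scaled to equal totals, reversed both signs, with values up to 0.14 for hyperplasia and 1.99 for tumor over GNP. With a GNP preparation left out, Cntn6 fell below the filter and was not tested. Cntn3, also called BIG-1 and a ligand of the phosphatase Ptprg, had 2, 3 and 3 top summits in GNPs, 1, 6 and 5 in hyperplasia and 6, 4 and 5 in tumors. Tumors were above GNPs without overlap, with a log2 fold change of 0.80 (SE 0.53, adjusted p = 0.527), or 0.42 with chromosome totals set level. Cntn4, also called BIG-2 and a partner of the amyloid precursor protein, had 2, 6 and 3 top summits in GNPs, 1, 4 and 2 in hyperplasia and 6, 7 and 4 in tumors. Its log2 fold change of tumor over hyperplasia was 1.23 (SE 0.49, adjusted p = 0.405), and 0.89 with chromosome totals set level. In total the 4 chromosome 6 genes had 15, 22 and 17 top summits in GNPs, 12, 24 and 18 in hyperplasia and 25, 22 and 23 in tumors, while the other 5 genes had 68, 68 and 72 in GNPs, 56, 53 and 65 in hyperplasia and 55, 56 and 52 in tumors.

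**Figure D3:**
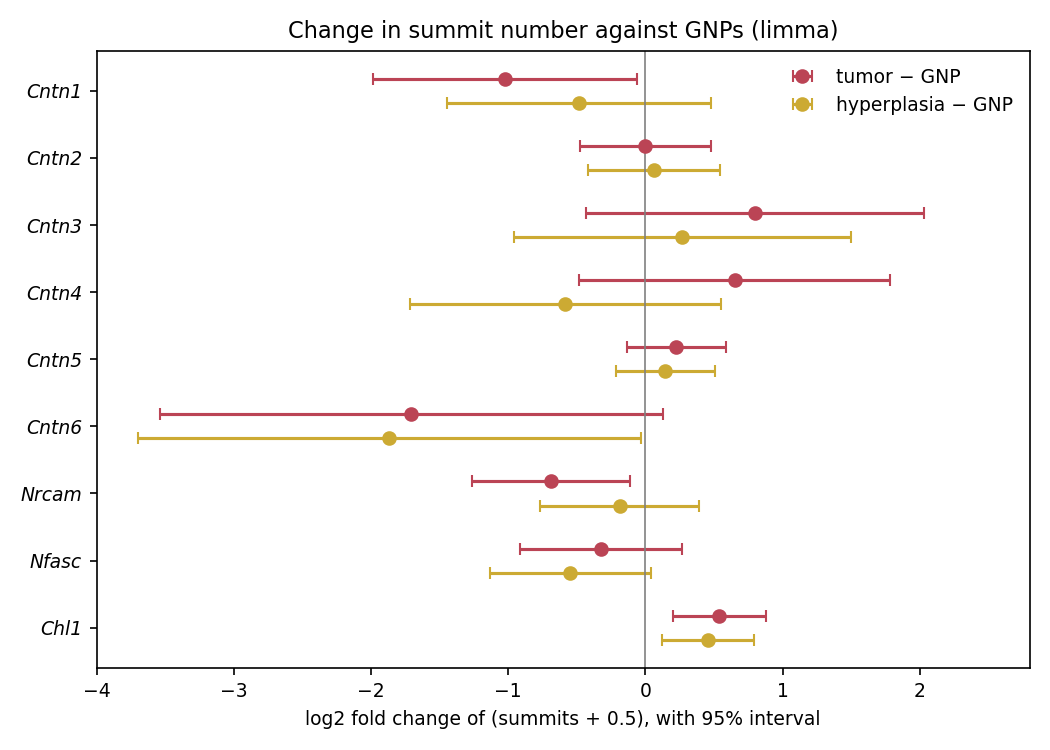
Log2 fold change of top summits plus 0.5 with 95% interval from limma for each gene, tumor over GNP above and hyperplasia over GNP beneath it. Chl1 lies right of 0 in both, Cntn6 lies left of 0 in both with the widest intervals, and none passed the adjusted threshold.

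Single positions can differ where totals do not. Top summits of all libraries were widened by 100 bp on each side and merged, and those with summits of 3 or more libraries kept, which gave 41998 regions, 60 of them nearest to the 9 genes. Nfasc had 18, Nrcam 11, Chl1 and Cntn1 7 each, Cntn5 6, Cntn2 4, Cntn3 and Cntn4 3 each and Cntn6 1. Of the 60, 71.7% lay inside the gene span, against 56.7% of all regions, and 4 (6.67%) were hit in all 18 libraries, against 14.6% of all regions. Coordinates are mm10, and exons and introns were not annotated here.

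The 4 constant regions belonged to 4 different genes, and 2 were outside the gene body. Inside Chl1, chr6:103649017-103649282 had the best median rank of the 60, with a median rank of 3899 in GNPs, 1758.5 in hyperplasia and 2662.5 in tumors, where rank 1 is the highest score of a library. All 18 summits there fell within 65 bp. The region after the end of Cntn5, chr9:9582513-9583458, lay 50765 bp outside the span and had a median rank of 2799.5 over the 18 libraries. The region chr1:132557812-132558638, between Cntn2 and Nfasc and 6052 bp from the end of Nfasc, had a median rank of 3369.5. Inside Nrcam, chr12:44515056-44515427 had a median rank of 6002.5, and ranks between 1555 and 13745. At the other genes no region reached all 18 libraries: the most shared region of Cntn1, at its start, was hit in 16, that of Cntn2, inside the gene, in 16, that of Cntn3, at its outer start, and that of Cntn4, at the promoter shown above, in 11 each. That Cntn4 region lay at an inner start, 441265 bp after the outer start of the gene span. The most shared region of Cntn6 is its only one and was hit in 9.

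A region was counted as gained when at least 5 of 6 libraries of the later stage and at most 1 of 6 of the earlier had a top summit in it, and as lost in the opposite case. No test was made of these counts. Between hyperplasia and GNPs, 1 of the 60 regions was gained and 4 were lost, against 2.15% and 2.78% of all regions. Between tumors and GNPs, 4 were gained and 6 lost, against 2.28% and 2.52% of all regions. Between tumors and hyperplasia, 2 were gained, against 1.2% of all regions, and 0 were lost, against 1.08%.

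Nfasc carried regions of both kinds. Inside the gene, chr1:132601268-132601593 had a top summit in 5 of 6 tumor libraries and in 0 of 6 of either GNP or hyperplasia, with ranks from 3219 to 26836 in tumors, and chr1:132581943-132582341 in 5 tumor libraries against 0 of GNP. Before the gene, chr1:132774908-132775317 had one in 0 of 6 tumor and 0 of 6 hyperplasia libraries against 5 of 6 of GNP, and chr1:132767017-132767875 in 0 tumor and 3 hyperplasia libraries against all 6 of GNP. A further one near an inner start, chr1:132709286-132709670, was hit in 1 tumor and 0 hyperplasia libraries against 5 of GNP. The gains thus lay inside the gene and 2 of its 3 losses before it. At any score, a summit was listed at both gained regions in 5 GNP and 6 tumor libraries. In hyperplasia, chr1:132601268-132601593 had one in 3 libraries and chr1:132581943-132582341 in 5. Of the lost ones, chr1:132774908-132775317 had one in 4 tumor and 2 hyperplasia libraries, and chr1:132767017-132767875 in 4 and 6. At chr1:132709286-132709670 it was 3 tumor and 4 hyperplasia libraries.

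At Nrcam, chr12:44329749-44330422, 1200 bp after the start, was gained in hyperplasia, with 5 of 6 hyperplasia libraries against 1 of GNP, and tumors had 3. Within the gene, chr12:44547707-44548156 had a top summit in 0 of 6 tumor and 0 of 6 hyperplasia libraries against 5 of GNP, and chr12:44437057-44437386 in 1 tumor library against 5 of GNP. At Cntn1, chr15:92200346-92200845 was hit in 1 of 6 hyperplasia libraries against all 6 of GNP, and in 2 of tumors. Its median rank among the GNP libraries was 8500, against 10874.5 for the region at the gene's start. At any score, a summit was listed at this Cntn1 region in 4 hyperplasia and 5 tumor libraries. The gained Nrcam region had one in 5 GNP libraries. Of the lost ones, chr12:44547707-44548156 had one in 3 tumor and 3 hyperplasia libraries, and chr12:44437057-44437386 in 2 tumor libraries.

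**Figure D4:**
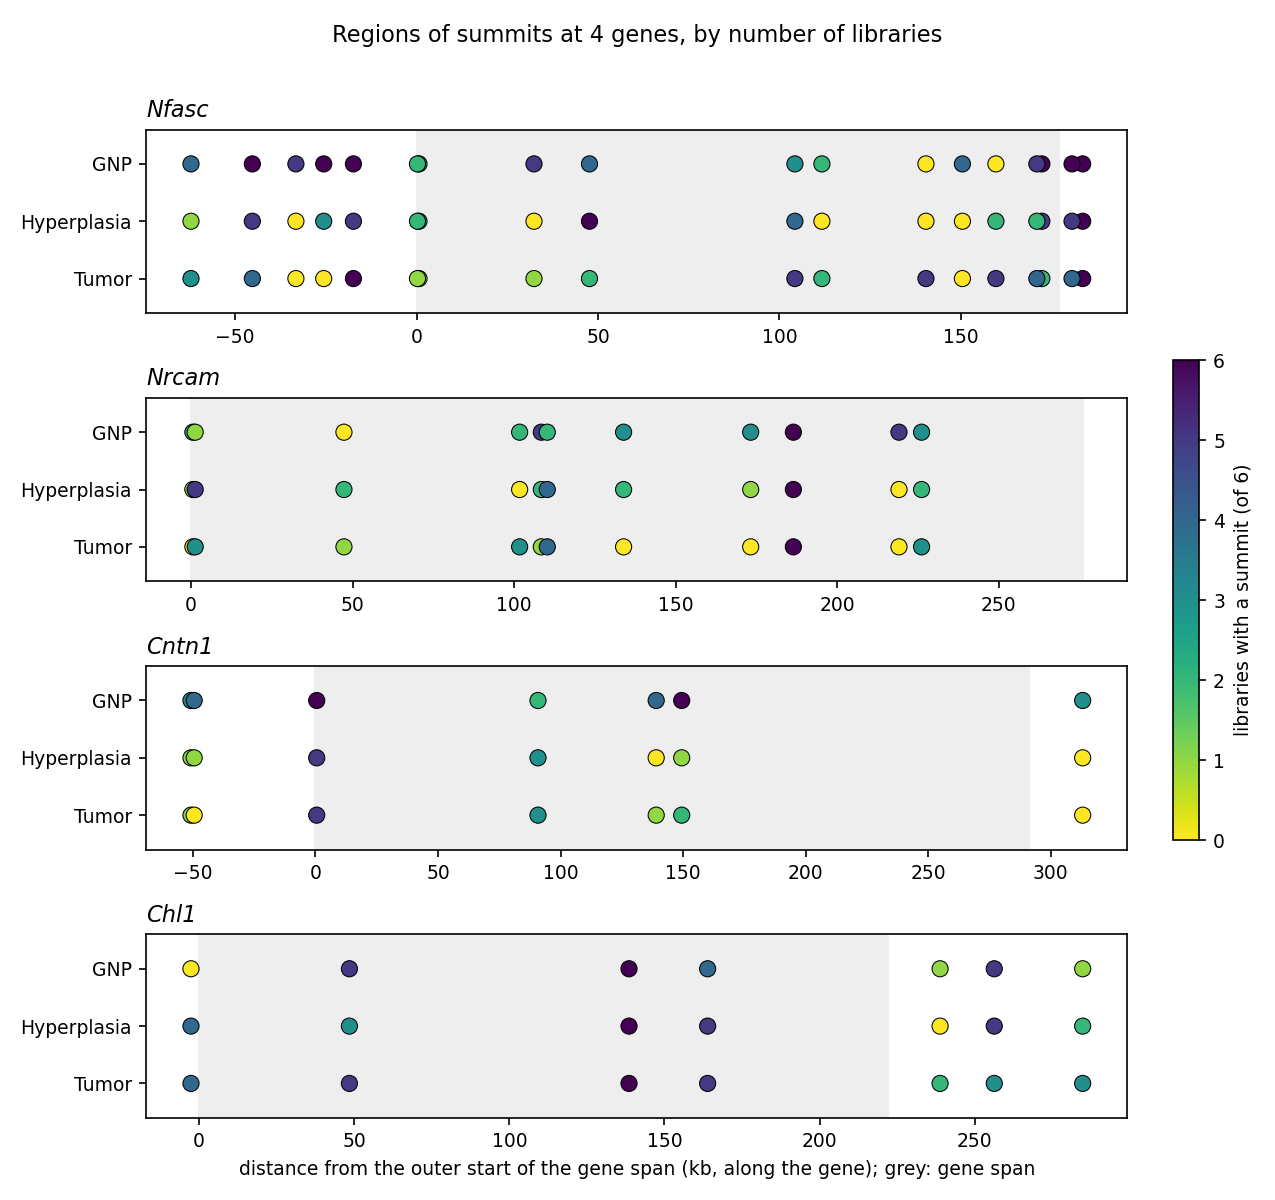
Regions at Nfasc, Nrcam, Cntn1 and Chl1 by distance from the outer start of the gene (kb, along the gene, gene span in grey), with the color of each point giving how many of 6 libraries of a stage had a top summit there. Nfasc has 2 points inside the gene that are dark in tumors and pale in GNPs and points before it that are dark in GNPs and pale in tumors, and Chl1 and Nrcam each have 1 region that is dark in every row.

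The chromosome 6 contactins gave the rest. The only region of Cntn6, chr6:104688031-104689142, 195542 bp after the start, had a top summit in 1 of 6 tumor libraries and 2 of 6 hyperplasia libraries against all 6 of GNP. Its rank was 22692 in the tumor library, 23267 and 28265 in hyperplasia and between 5936 and 14358 in GNPs. The ranks of the later stages were all worse than those of GNPs. A summit of any score was still listed there in 5 tumor, 5 hyperplasia and 6 GNP libraries, so that the call records a worse rank and not an empty site, and such counts depend on the length of each list. Inside Cntn4, chr6:106440736-106441341 was hit in 5 of 6 tumor libraries against 0 of GNP and 1 of hyperplasia. At any score, a summit was listed there in 6 tumor, 4 hyperplasia and 5 GNP libraries. Inside Cntn3, chr6:102555219-102555598 was hit in 6 of 6 tumor libraries against 1 of GNP. Any summit at all was listed there in 6 tumor and 5 GNP libraries. Both gained regions lie on the chromosome whose share of top summits was higher in tumors, and its part in these gains was not tested.

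The whole lists, below the top 30000, showed another side of the sparse genes. In tumors, Cntn6 had 77, 101 and 37 summits in the 3 NFIA lists, whose lengths were 279360, 374375 and 163257 autosomal summits, and 2, 12 and 10 in the NFIB lists. Per 30000 summits of a list, this made 8.27, 8.09 and 6.8 for NFIA and 1.22, 3.42 and 2.94 for NFIB in tumors, 0.889 to 3.31 over the 6 libraries of hyperplasia and 0.935 to 2.18 in GNPs. The highest value of hyperplasia was in its longest list, of 354001. Of the 3 tumor NFIA lists, 2, 0 and 1 of these summits were among the top. Cntn4 moved in the same way, with 17.3, 18.4 and 13.4 per 30000 in tumor NFIA lists, 5.49, 9.13 and 8.23 in tumor NFIB lists, 2.59 to 10.9 in hyperplasia and 0 to 5.55 in GNPs, the 10.9 being in the same list of 354001. When all summits were counted and scaled to equal totals, 5 of the 9 genes passed the threshold between tumors and GNPs: Cntn3 (log2 fold change 1.88), Cntn4 (2.02), Cntn5 (1.03), Chl1 (0.88) and Cntn6 (1.73, opposite in sign to its top summits), where 4.28% of all genes passed. All but Cntn5 lie on chromosome 6, whose share of top summits in tumors was 1.35 times that in GNPs. Chromosome totals were not set level for all summits, so the part of chromosome 6 was not tested. In the NFIA libraries alone Cntn3 and Cntn6 passed, with 2.4% of all genes, and in the NFIB libraries alone Cntn4 did, with 0.49%. Between tumors and hyperplasia Cntn6 passed (1.59) with 0.0682% of all genes, and in the NFIB libraries alone Cntn4 (1.10) with 0.15%. Most of these summits had low scores. Per 30000, the third tumor NFIA list, of 163257 summits, had 6.8 at Cntn6, 4.96 at Cntn3 and 9.56 at Cntn5, against 3.31, 5.25 and 13.6 in the hyperplasia list of 354001. In NFIA, every tumor list was longer than every GNP list, so between them list length and stage cannot be told apart. NFIB lists overlapped in length, with 49166 to 105122 autosomal summits in tumors and 87388 to 157270 in GNPs. The part of list length was not tested.

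**Figure D5:**
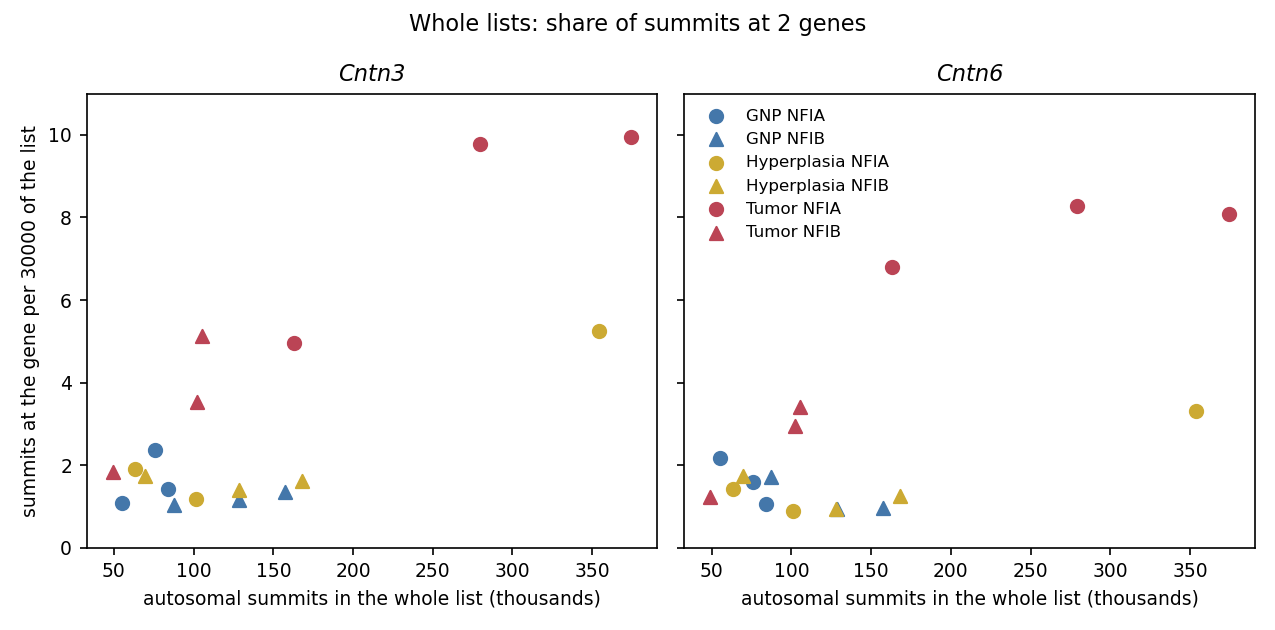
Summits at Cntn3 and Cntn6 per 30000 of the whole list against list length, one point per library, with color for stage and shape for NFIA or NFIB. The 3 tumor NFIA libraries stand highest for Cntn6, between 6.8 and 8.27, and GNP libraries lie at or below 2.38 for both genes.

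No difference between NFIA and NFIB libraries passed the test at these genes. Per library, Nrcam averaged 4.67 ± 2.24 top summits for NFIA and 5.89 ± 1.36 for NFIB, and Cntn5 4.78 ± 1.2 for NFIA and 6.11 ± 1.54 for NFIB (SD, n = 9 each). These were the smallest p-values of the 9, with limma adjusted p = 0.856 for Nrcam and 0.841 for Cntn5. Of 8588 genes, 0 passed with limma, or 0%, and 5.79% had an unadjusted p under 0.05. The interaction of stage with NFIA or NFIB passed for none of the 9 and for 0 of 8588 genes, which does not show that the 2 proteins act alike. Where a preparation had a top summit in one of the 60 regions, both of its libraries had one in 47.5% of cases, or 53.2% in GNPs, 43.1% in hyperplasia and 44.9% in tumors. Over all 41998 regions the share was 59%, or 62.8% in GNPs, 56.7% in hyperplasia and 57.4% in tumors.

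Genes that work with this family were described from lists drawn up by role. Of 23 receptors and partners at the membrane, 17 were tested, and 0 passed between any stages by limma. Their median log2 fold change was 0.25 for tumor over hyperplasia (13 higher, 4 lower) and -0.10 for tumor over GNP (8 higher, 9 lower). For hyperplasia over GNP it was -0.08 (6 higher, 10 lower), and the median of all genes was 0.00 in each. Of all genes, 48.6%, 49.4% and 46.2% were higher in these comparisons, in that order. Before adjustment, 4 of the 17 had a limma p under 0.05 in each, against 11.3%, 14.8% and 13.4% of all genes. App, the amyloid precursor protein, which binds contactins, had 13, 13 and 14 top summits in tumors, against 5, 5 and 7 in GNPs (log2 fold change 1.18, SE 0.19, adjusted p = 0.06), with hyperplasia at 8, 13 and 10. Tumors and GNPs did not overlap at App, and 6.17% of all genes were likewise higher in tumors without overlap. Cntnap2, the contactin-associated protein Caspr2, had 33, 36 and 36 in tumors, against 22, 28 and 25 in GNPs (log2 fold change 0.48, SE 0.12, adjusted p = 0.144). It lies on chromosome 6. Bcan, the matrix proteoglycan brevican, had 2, 1 and 1 in hyperplasia, against 4, 3 and 5 in GNPs (log2 fold change -1.32, SE 0.25, adjusted p = 0.105), and 5, 4 and 5 in tumors. Cntnap5c, a further contactin-associated gene, had 0, 0 and 1 in tumors, against 5, 5 and 4 in hyperplasia (adjusted p = 0.111), and 2, 1 and 3 in GNPs.

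Of 12 cytoskeletal anchors, 9 were tested and 0 passed, with a median log2 fold change of -0.17 for tumor over GNP. Epb41l3, a protein 4.1 of the paranode, had the smallest p of these for hyperplasia over GNP, with means of 10 ± 1 in hyperplasia and 13.7 ± 1.53 in GNPs (SD, n = 3 each; limma adjusted p = 0.236). Of 21 other neural immunoglobulin adhesion genes, 18 were tested and 0 passed, with a median of 0.05 for tumor over GNP. Lsamp, a lipid-anchored protein of the IgLON family, had 26, 30 and 26 in tumors, against 33, 38 and 40 in GNPs (adjusted p = 0.0829). Negr1 of the same family had 18, 17 and 14 in tumors, against 11, 7 and 11 in GNPs (adjusted p = 0.136). These 2 genes, which had the smallest p-values of the list for tumor over GNP, thus went opposite ways without passing the test. They do not stand for their family, and over the list 11 genes were higher and 7 lower.

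By the pattern over the 9 preparations, the genes with the most similar numbers of top summits were Smad3 to Chl1 (Pearson r 0.961), Hs6st3 to Cntn5 (0.937), Cnksr3 to Nrcam (0.937), Ryr2 to Cntn1 (0.903) and Chst15 to Nfasc (0.898). Each is the highest of 1539 to 1541 genes that averaged 8 or more summits and had no span within 1 Mb, all counted in the same libraries, and is a description only.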

How the data were processed

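The authors' deposited files list, for each of 18 CUT&Tag libraries, 1-base summits with the peak caller's score, a −log10 p-value or q-value (which of them is not stated), lowest 2.00. Bowtie2, MACS2 and mm10 are named in the submitters' processing notes, without versions, and name no control library. Stage, target and preparation came from the titles.

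Autosomal summits (19 chromosomes) were ranked by score (ties at random, seed 1), the 30000 highest kept, and each given to the nearest of 20665 protein-coding RefSeq spans (GRCm38.p6) within 100 kb, or the shortest where spans overlap. A nearest span need not be the gene acted on. NFIA and NFIB libraries of a preparation were summed. limma 3.58.1 (R 4.3.3, trend and empirical Bayes) was fitted to log2(summits + 0.5) of all genes with a mean of at least 2, with a term for stage alone and p-values adjusted by Benjamini and Hochberg, threshold 0.05. This scale understates changes of genes with few summits. NFIA and NFIB were compared per library (mean of at least 1 summit) with stage as a term. Regions were summits ±100 bp, merged, in at least 3 libraries. With 3 against 3 preparations an exact permutation test cannot go below 0.1, so none was used. Python 3.11.15, numpy 2.4.6, pandas 2.3.3 and matplotlib 3.10.9 were used, and the fit and the region count were tested on simulated data.

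Replicate numbers are shared between stages. Deviations of same-numbered preparations correlated at 0.000 to 0.080, and those of differently numbered ones at -0.073 to 0.031. The likeness by number was thus small, and the main fit held no block. Numbers 1 and 2 of GNP and hyperplasia share 1 title date and number 3 another, and within-date values are given where preparations did not overlap. Named were all 9 genes, up to 3 genes per list with the smallest p per comparison (a subset is printed), the regions gained or lost and the most shared region of each gene. The 9 genes and the lists were chosen with earlier results of these data known. Alternatives changed the number of summits kept, score minimum, ties, pseudocount, filter, distance, chromosome scaling, target, block and replicates. Taking all summits by target was added after seeing the data.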

Additional observations from a re-analysis of the deposited data

How the results depend on the processing

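With top summits, 0 of the genes tested passed the threshold between any stages under each alternative that keeps a top number or a score minimum, including the replicate block (0 in each comparison), the title date as a term and each preparation left out in turn. All 9 were tested, except that 6 were with 15000 summits and 8, without Cntn6, with ties broken otherwise or a GNP preparation left out. With all summits scaled to equal totals, 5 passed for tumor over GNP (2 in NFIA and 1 in NFIB libraries alone, these 2 chosen after seeing the data) and 1 for tumor over hyperplasia (1 in NFIB alone, Cntn4, 1.10). NFIA against NFIB stayed at 0, also with preparation as a replicate block. Of 636 log2 fold changes under alternatives, 577 kept direction and side of the threshold. The threshold was newly passed by 10, all from counting all summits.

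Region counts, gained and lost together, were, of 60 regions at the 9 genes, 5 for hyperplasia over GNP, 10 for tumor over GNP and 2 for tumor over hyperplasia. They were 3, 2 and 0 of 30 with 15000 top summits, 3, 6 and 1 of 70 with 50 bp on each side of a summit, and 0, 1 and 0 of 60 when 6 of 6 against 0 of 6 libraries were asked for. Without the hyperplasia NFIA library 2, gained and lost were 2 and 5 of 60 for hyperplasia over GNP, and 1526 and 1309 of all 41998 regions, against 905 and 1167 with it. For tumor over hyperplasia all regions gave 596 and 930 without it, against 506 and 452 with it.

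Opposite signs arose for genes near 0, and also at Cntn6, main values -1.87 for hyperplasia and -1.71 for tumor over GNP. At Cntn4, with -0.58 for hyperplasia over GNP, the sign was opposite in 4 of 24 alternatives. The cause of the opposite signs was not tested. For hyperplasia over GNP they were, with all summits, Cntn1 0.04, Cntn2 -0.26, Cntn4 0.50 and Cntn6 0.14; with all summits of NFIA alone, Cntn2 -0.47, Cntn4 1.10 and Cntn6 0.07; with all of NFIB alone, Cntn1 0.26, Cntn2 -0.04, Cntn4 0.10 and Cntn6 0.09; with scores of at least 5, Cntn2 -0.02 and Cntn4 0.10; with 15000 summits, Cntn2 -0.11; with NFIA alone, Cntn2 -0.16 and Cntn3 -0.15; and with the hyperplasia NFIA library 2 left out, Cntn3 -0.19. For tumor over GNP they were Cntn6 with all summits, 1.73 (adjusted p = 0.00102), 1.99 in NFIA and 0.78 in NFIB alone, and Nfasc with scores of at least 5, 0.04. For tumor over hyperplasia they were, with all summits, Nfasc -0.13; in NFIA alone Cntn1 0.08 and Nfasc -0.57, and in NFIB alone Cntn2 0.08; with scores of at least 5, Cntn2 0.04, Cntn3 -0.30, Cntn5 -0.20, Cntn6 -0.08 and Chl1 -0.08; with 15000 summits, Cntn5 -0.12 and Chl1 -0.23; with chromosome totals set level, Cntn6 -0.03 and Chl1 -0.29; with summits inside spans only or within 20 kb, Cntn6 -0.37 each; with NFIA alone, Cntn2 0.04 and Chl1 -0.04; and with NFIB alone, Cntn6 -0.53.

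At Cntn6 only hyperplasia or tumor preparations could be left out, since without a GNP preparation it fell below the filter. Leaving out 1 preparation at a time gave ranges across 0 for hyperplasia over GNP of -0.75 to 0.04 at Cntn1, -0.11 to 0.21 at Cntn2 and -0.12 to 0.93 at Cntn3. For tumor over hyperplasia they were -0.21 to 0.11 at Cntn2, -0.14 to 0.92 at Cntn3, -0.51 to 0.89 at Cntn6, -0.04 to 0.42 at Nfasc and -0.02 to 0.16 at Chl1. On 1 side of 0, ranges were wide for hyperplasia over GNP at Cntn6 (-2.38 to -1.22), Cntn4 (-0.99 to -0.20) and Nfasc (-0.74 to -0.28), for tumor over GNP at Cntn6 (-2.38 to -0.97), Nrcam (-0.94 to -0.41), Nfasc (-0.43 to -0.13), Cntn4 (0.34 to 1.03) and Cntn5 (0.08 to 0.36), and for tumor over hyperplasia at Cntn1 (-1.07 to -0.27) and Nrcam (-0.75 to -0.22).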

Other observations

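L1cam, the founding gene of the L1 family, lies on the X chromosome and was outside the autosomal comparison. At or above the score of the last autosomal summit kept, it had a summit in 2 of 6 tumor, 2 of 6 hyperplasia and 4 of 6 GNP libraries. At any score, between 1 and 8 summits were listed in tumors, 1 and 14 in hyperplasia and 3 and 12 in GNPs. These are values of 1 gene with no test.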
